A study of Mus musculus with 12 samples.

Results

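The genes lying around Esr1 on mouse chromosome 10 were followed here through 2 knockout comparisons. Esr1 encodes estrogen receptor alpha, a nuclear receptor that binds estradiol and acts as a transcription factor. The members were all genes that the deposited tables place on chromosome 10 with a start below 20 Mb, Esr1 itself left out. This rule gave 88 of the 25655 genes of each table, from H60c at the centromeric end to Map3k5. The choice used position alone, but it was made with earlier results of these data known, and the rule's own wording names Cnksr3.

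The study sorted PDGFRα+ cells from skeletal muscle and from bone and compared control with conditional knockout mice, female according to the series title. PDGFRα is a growth factor receptor carried by mesenchymal stromal and progenitor cells. Both sorts kept PDGFRα+ cells and removed those with CD45 (leukocytes) or CD31 (endothelium), and the muscle sort removed Vcam1+ cells as well. There were 4 groups of 3 samples. All 6 knockout samples were labelled PDGFRα-CreER with 2 floxed Esr1 alleles. Among the muscle controls, 2 samples carried PDGFRα-CreER alone and 1 carried it with 1 floxed Esr1 allele. Among the bone controls, 2 carried PDGFRα-CreER alone and 1 carried 2 floxed alleles without the Cre. The CreER is driven from the PDGFRα gene's regulatory sequence, as its name says, so deletion would be limited to cells that express it. The labels used here do not say how old the mice were, what their strain was, how tamoxifen was given, which exons were floxed or whether replicates were separate animals.

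A gene altered by targeting is inherited together with the DNA that flanks it. Mice that carry a floxed allele therefore tend to share the surrounding stretch of the chromosome as well. In this study 1 muscle control and 1 bone control also carried floxed Esr1 alleles, so the flanking DNA was not split cleanly between the groups. For any gene here, loss of the receptor and inheritance of the flanking DNA cannot be told apart in these comparisons.

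Every fold change, p, FDR (the authors' adjusted p) and level below comes from the authors' deposited table of that tissue, in which a positive log2 fold change is higher in the knockout. The level is the larger of the 2 group means, in a unit the table does not name. The libraries' own columns carry laboratory codes that match no label. No value per sample, no spread between replicates and no sequencing depth is therefore given here, and the p-values measure only a spread between samples that may be technical. Libraries were made with a kit that reads the 3' ends of transcripts. Whether the levels were divided by gene length is not stated, so orders of genes below are those of the tables' own values.

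The sorted cells were checked against their markers. In muscle the 7 mesenchymal markers had levels of 162 to 13437 in the authors' deposited table and the 4 leukocyte markers 0.217 to 2.65. The 5 erythroid markers stood at 37.7 to 1607 in muscle in the authors' deposited table, overlapping the mesenchymal range. The 4 neutrophil markers stood at 0 to 17.3 there and the 3 muscle fibre markers at 4.93 to 49.7. In bone, mesenchymal markers stood at 8.6 to 688, leukocyte markers at 23.1 to 192 and erythroid markers at 2275 to 263063 in the authors' deposited table. The 8.6 was that of Pdgfra, which encodes the receptor the cells were sorted for, and it lay below the leukocyte range. These are larger group means, and the order within each group was not examined. Ptprc, which encodes the CD45 that the gate selects against, had a level of 0.781 in muscle, against 23.1 for bone, by the authors' deposited tables. The 4 neutrophil markers, of a CD45+ cell type, stood at 279 to 6106 in bone in the authors' deposited table. By this larger mean, S100a8, S100a9 and Ngp (6106, 2846 and 1046) were above the highest mesenchymal marker there, Col1a1 at 688. These means come from different groups by the sign of the bone log2 fold change in the authors' deposited table. It was 2.88, 3.06 and 3.73 for the 3 (knockout mean larger) and -1.07 for Col1a1 (control mean larger). By these signs the order holds in the knockout group, where no mesenchymal marker can exceed 688. Whether it holds in the control group is not shown. The gate names no erythroid marker. The endothelial markers were at 0.302 to 22 in muscle, and 3 of 4 were listed at 0 in bone. Vcam1, gated against in muscle, stood at 53.7 there in the authors' deposited table, while Pax7 and Myf5 were listed at 0 in both tissues. In bulk samples fewer cells of a type and less RNA per cell cannot be told apart.

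Promoter windows are shown at 3 sites of genes named in the results below. The first is that of Esr1 and the second that of Cnksr3, the only gene of the neighbourhood that passed the test. The third is the window shared by Rmnd1 and Armt1, close neighbours whose muscle values had opposite signs. Any bearing of these sequences on the expression values was not tested. The windows are RefSeq promoters on GRCm38.p6, 300 bases each, written 5′ to 3′ on the gene's strand. Those of Cnksr3, Rmnd1 and Armt1 span the gene's annotated start. That of Esr1 lies downstream of its annotated start at 4611593. Capitals mark CACGTG, the E box read by MAX-family and related factors, a motif chosen after the sequences were seen.
Esr1 (chr10:4611739-4612038, plus strand): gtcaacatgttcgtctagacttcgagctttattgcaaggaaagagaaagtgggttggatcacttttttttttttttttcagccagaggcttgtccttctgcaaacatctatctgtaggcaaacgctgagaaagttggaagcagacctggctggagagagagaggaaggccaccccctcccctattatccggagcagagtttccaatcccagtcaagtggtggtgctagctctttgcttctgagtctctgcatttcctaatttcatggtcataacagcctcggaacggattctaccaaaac
Cnksr3 (chr10:7212188-7212487, minus strand): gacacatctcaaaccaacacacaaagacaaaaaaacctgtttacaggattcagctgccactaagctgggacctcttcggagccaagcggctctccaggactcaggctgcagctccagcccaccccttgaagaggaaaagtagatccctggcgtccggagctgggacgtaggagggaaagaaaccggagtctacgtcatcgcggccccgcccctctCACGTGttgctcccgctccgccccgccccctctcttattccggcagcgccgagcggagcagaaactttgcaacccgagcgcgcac
Armt1 (chr10:4432355-4432654, plus strand): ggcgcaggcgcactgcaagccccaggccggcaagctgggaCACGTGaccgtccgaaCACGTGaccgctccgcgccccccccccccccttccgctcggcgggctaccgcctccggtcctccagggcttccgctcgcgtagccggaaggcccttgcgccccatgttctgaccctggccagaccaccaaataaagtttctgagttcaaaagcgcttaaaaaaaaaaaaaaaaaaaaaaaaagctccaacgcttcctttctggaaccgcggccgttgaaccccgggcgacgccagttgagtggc

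The Rmnd1 window covers chr10:4432339-4432638 on the minus strand, nearly the same bases as that of Armt1, and both windows held 2 E boxes. Cnksr3 held 1 and the Esr1 window shown held 0. Promoter windows were matched for 64 of the 88 members, 76 windows in all. Of these, 10 held CACGTG (13.2%), against 7.15% of all 32851 windows. The 10 count the sites shared by Rmnd1 and Armt1 in both windows. CACGTG holds a CG, and the median number of CG pairs was 14 in member windows and 7 over all. The part of CG pairs in this share was not tested. The estrogen response element, searched as the palindrome GGTCA, 3 bases of any kind, TGACC, was in 0 of the 76 windows and in 23 of all windows (0.07%). A single arm of it, AGGTCA, searched on both strands, was in 8 member windows (10.5%) and in 16.3% of all, and in neither Esr1 window nor that of Cnksr3. Median GC content was 58.2% over member windows and 52.7% over all. A match is a description of letters, and an absence says only that they are not in these windows.

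Esr1 itself lies at 4611593 to 5005614 of chromosome 10 on GRCm38. Its level was 45.6 in muscle and 75.9 in bone, and its log2 fold changes of 1.02 (p = 0.404) and -2.69 (p = 0.245) in the authors' deposited tables did not pass the test. A transcript end can outlast a deletion elsewhere in the gene, so this value does not check the genotype labels.

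In both tissues a larger share of the neighbourhood than of all genes was above 0. In muscle 58 of the 88 members (65.9%) were above 0 in the authors' deposited table, against 51.3% of all genes. In bone 45 (51.1%) were above 0, against 41%. Every member above 0 had a p, and those listed at 0 had none. An FDR was given for 36 members in muscle and 34 in bone. Both tables listed 28 members at 0, made up of 14 predicted genes or RIKEN clones and 14 named genes. Among the latter were genes of neurons and other specialised cells, such as Oprm1 (the mu opioid receptor), Vip (a neuropeptide), Nmbr (a peptide receptor) and Olig3 (a neural transcription factor). Ccdc170, a coiled-coil gene and the nearest gene on the centromeric side, was also listed at 0 in both.

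In muscle the 5 members of highest level were Sash1, Akap12, Hivep2, Fbxo30 and Ginm1. Sash1, an adaptor of innate immune and adhesion signalling, stood at 283 and Akap12, which anchors protein kinases A and C, at 277 in the authors' deposited table. Hivep2, a zinc finger transcription factor gene, stood at 158, Fbxo30, which encodes a substrate receptor of a ubiquitin ligase, at 135 and Ginm1, a membrane glycoprotein gene, at 102. In bone the highest were Fbxo5, an inhibitor of the anaphase-promoting complex, at 68, Aig1, a lipid hydrolase gene, at 54.8 and Tnfaip3, the ubiquitin-editing brake on NF-kappaB, at 54.5. Abracl, an actin regulator gene, at 50.2 and Nup43, a nuclear pore gene, at 43.6 came next. The 2 tissues have separate tables whose normalization is not stated, and levels are set side by side only for their order within each. The figure of levels along the chromosome shows that the order differed between tissues. Fbxo5 stood at 0.708 in muscle, and Akap12 at 3.43 and Hivep2 at 0.908 in bone in the authors' deposited tables.

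**Figure D1:**
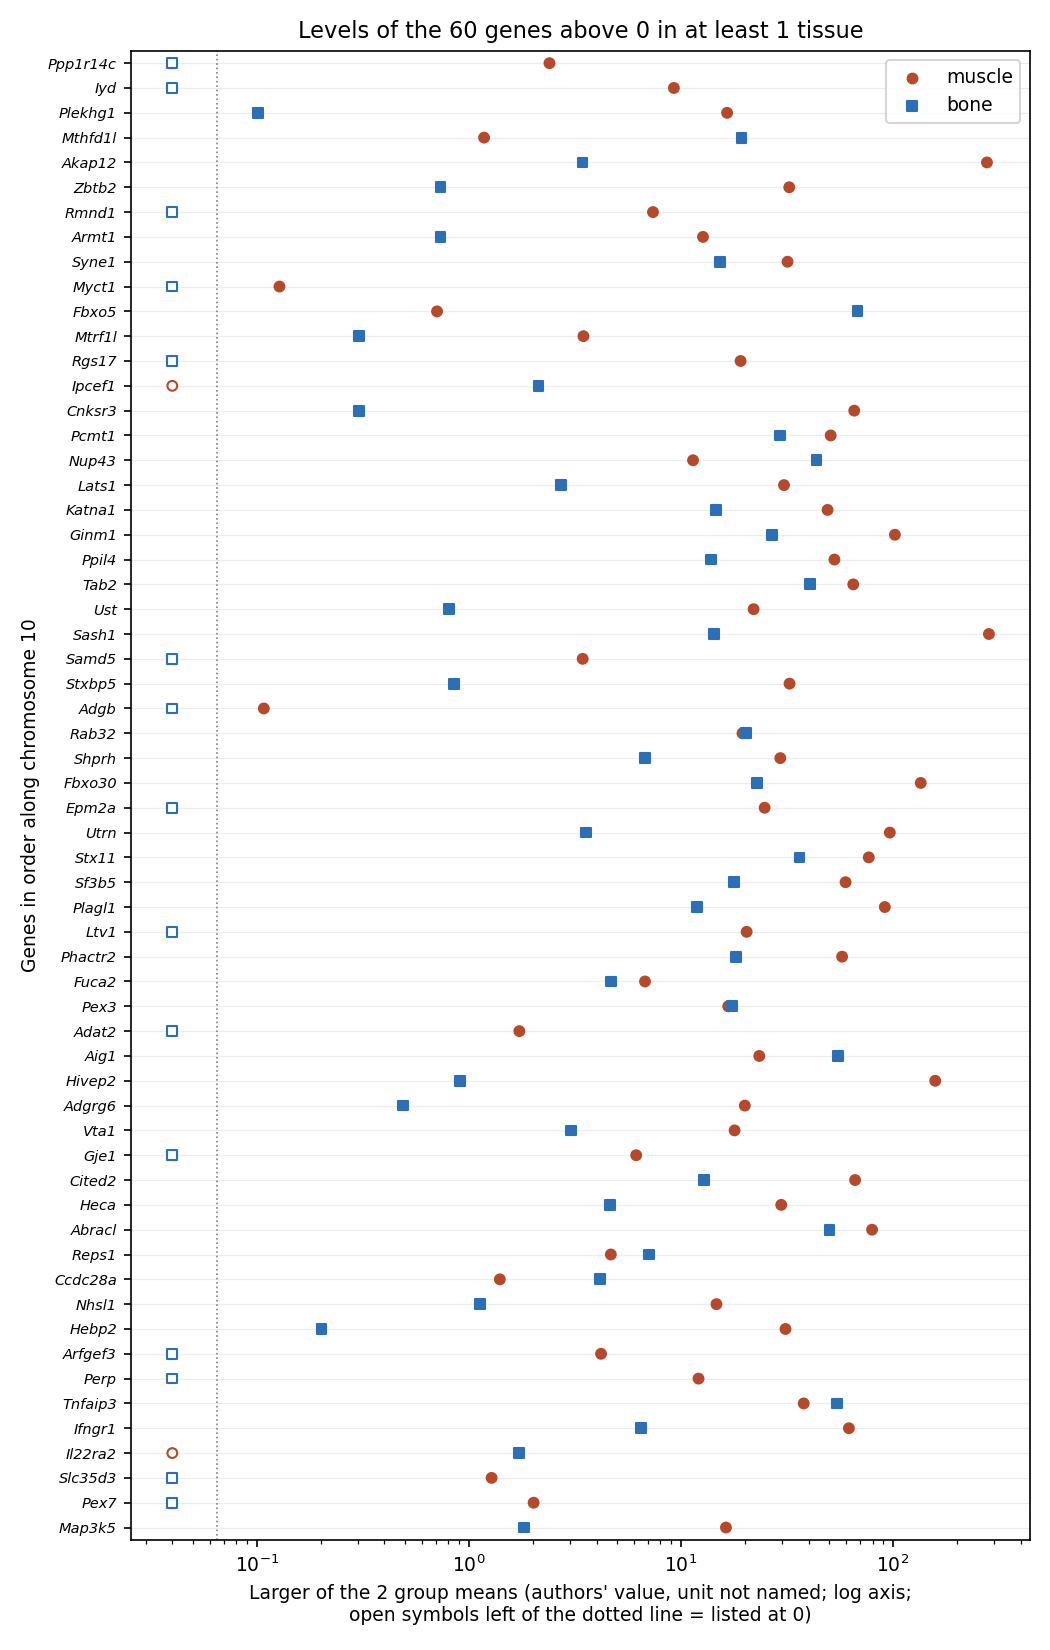
Level of each of the 60 members above 0 in at least 1 tissue, in order along chromosome 10. The horizontal axis is the larger of the 2 group means (authors' value, unit not named, log axis), circles are muscle, squares are bone, and open symbols left of the dotted line are listed at 0; 15 members were above 0 in muscle alone and 2 in bone alone.

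In muscle, 1 member passed the test. Cnksr3 (ENSMUSG00000015202, chromosome 10, 7119063 to 7212237 on GRCm38, minus strand) encodes a scaffold protein known for restraining ERK signalling and for promoting sodium transport in kidney epithelium. It fell by 7.33 on the log2 scale at a level of 65.6 (p = 1.32e-07, FDR = 0.000467, Bonferroni p = 0.00173, all from the authors' deposited table). It lies 2.11 Mb beyond Esr1 on the side away from the centromere. A fold change of this size at this level is a fitted value that can stand for a group at or near 0, so it is no estimate of size. No other gene's annotated exon lies in the last 500 bases of Cnksr3.

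That call was 1 of 36 members with an FDR, where 0.127% of 7107 genes passed in either direction and 0.0704% passed as lower in the knockout. In the rest of chromosome 10, 0 of 322 genes passed. At an unadjusted p under 0.05, 20 of the 580 tested there were lower and 35 higher. No source used here names the authors' test. Because Cnksr3 was known to be called when the neighbourhood was chosen, the count is a description of the choice and not separate evidence.

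No gene next to Cnksr3 passed in muscle. On the side towards Esr1, Ipcef1, a cytohesin-binding scaffold gene, and Oprm1 were listed at 0, and Rgs17, which speeds signal shut-off at G proteins, had 3.34 (p = 0.0739) in the authors' deposited table. On the far side Ulbp1 (a ligand of an NK cell receptor) and Lrp11 (a lipoprotein receptor relative) were listed at 0. Pcmt1, a protein repair methyltransferase gene, had 0.52 (p = 0.594), and Nup43, a nuclear pore gene, had -4.79 (p = 0.0494) at a level of 11.4 in the authors' deposited table. Further on Lats1, the Hippo pathway kinase gene, had 0.05 (p = 0.966) in the authors' deposited table.

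The nearest neighbours of Esr1 showed no common direction in muscle. Syne1 encodes nesprin-1, which ties the nuclear envelope to actin. It runs towards Esr1 on the opposite strand with its end 15.3 kb away, and it had 1.08 (p = 0.461) at a level of 31.8 in the authors' deposited table. On the centromeric side Zbtb2, a zinc finger repressor gene 223.5 kb away, had 1.49 (p = 0.279) in the authors' deposited table. Akap12, at 252.1 kb, had 0.20 (p = 0.614) in the authors' deposited table. Mthfd1l, a mitochondrial folate enzyme gene, had -4.76 (p = 0.0974) at a level of only 1.18 in the authors' deposited table. Beyond Syne1, Myct1 was negative at a level of 0.128, Fbxo5 had 3.92 at 0.708, and Mtrf1l, a mitochondrial translation release factor gene, had -3.65 (p = 0.127) at 3.47 in the authors' deposited table.

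Rmnd1 and Armt1 start 79 bases apart on opposite strands, 179.2 and 156.5 kb from Esr1. Rmnd1 is needed for mitochondrial protein synthesis, and Armt1 encodes an enzyme acting on acidic protein residues. In muscle Rmnd1 had -7.28 (p = 0.0211) at a level of 7.38 and Armt1 4.65 (p = 0.0322) at 12.7 in the authors' deposited table. Neither was given an FDR, and adjusted over all genes with a p they stood at 0.408 and 0.417. In bone Rmnd1 was listed at 0 and Armt1 had 2.58 (p = 0.244) in the authors' deposited table. There were 4 other such divergent pairs with starts within 1000 bases of each other. Of the 3 with a muscle value for both genes, Pcmt1 and Lats1 (0.52 and 0.05) and Pex3 and Adat2 (3.62 and 5.26) had the same sign, and Ginm1 and Ppil4 (0.62 and -1.72) did not, in the authors' deposited table.

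Beside Cnksr3, 8 members had an unadjusted p under 0.05 in muscle and did not pass the test. The 9 together were 15.5% of 58, against 11.7% of all genes. With Cnksr3 included, 6 of 58 members were lower at this level (10.3%, against 5.31% of all 13158 genes) and 3 were higher (5.17%, against 6.41%). Adgrg6, an adhesion G protein-coupled receptor gene known for its part in myelination, had -8.71 (p = 0.00554) at a level of 20 in the authors' deposited table. Gje1, a connexin-family gene, had -5.24 (p = 0.041) at a level of 6.15 in the authors' deposited table, and Nup43 and Rmnd1 (above) were the other lower ones with low levels. Plagl1, an imprinted zinc finger growth regulator, had -1.75 (p = 0.0287, FDR = 0.672) at a level of 91.4 in the authors' deposited table, the highest level among these 9 members. The higher members were Map3k5, the stress-activated kinase ASK1, with 5.58 (p = 0.00888), Iyd, the thyroid iodotyrosine deiodinase gene, with 7.48 (p = 0.0218), and Armt1, in the authors' deposited table. Next in p among higher members came Arfgef3 (6.36, p = 0.0546) and Fuca2, a fucosidase gene (4.46, p = 0.0614), in the authors' deposited table.

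Large muscle fold changes went with low levels. Of the members, 18 had an absolute log2 fold change over 3, and Cnksr3 had the highest level among them. Across the 58 members with a p, level and absolute log2 fold change had a Spearman rho of -0.576, a description over genes that share the same libraries. The 17 members with a level over 50 had a median of 0.11 and ran from -7.33 (Cnksr3) to 1.78 (Stx11). Next to Cnksr3 the lowest of them were Plagl1 (-1.75, above) and Ppil4, with -1.72 (p = 0.126), in the authors' deposited table. Sash1 had -0.18, Hivep2 -0.49, Ginm1 0.62 and Utrn (utrophin, a relative of dystrophin, at 96.5) 0.11 in the authors' deposited table, each with a p of 0.319 or more. Fbxo30 had -1.10 (p = 0.088) and Stx11, a syntaxin of immune cell granule release, 1.78 (p = 0.118) in the authors' deposited table.

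As a set, the neighbourhood was balanced in muscle. There were 32 higher and 26 lower members (55.2% higher), against 53.5% of all genes and 54.5% of the rest of chromosome 10. The median log2 fold change was 0.14 among members, 0.12 over all genes and 0.15 on the rest of the chromosome. The 7 mesenchymal markers all had positive muscle values in the authors' deposited table (median 0.65, 1 passing) and the 5 erythroid markers all negative ones (median -0.99, 0 passing). Their part in the members' values was not tested.

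Distance from Esr1 did not order the values in muscle. The 8 centromeric members with a p had a median log2 fold change of 0.61 and a range of -7.28 to 7.48. The 6 within 2.5 Mb on the far side had -0.46, the 11 from 2.5 to 5 Mb -0.18, the 19 from 5 to 10 Mb 0.11 and the 14 beyond 10 Mb 0.24. The Spearman rho of distance was 0.113 with the log2 fold change and -0.148 with its absolute value, over 58 genes of the same libraries. Genes next to each other in order had the same sign in 23 of 57 member pairs (40.4%), against 50.6% of adjacent pairs over the whole table. The plot of fold change against distance shows Cnksr3 with positive and negative values on either side of it.

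**Figure D2:**
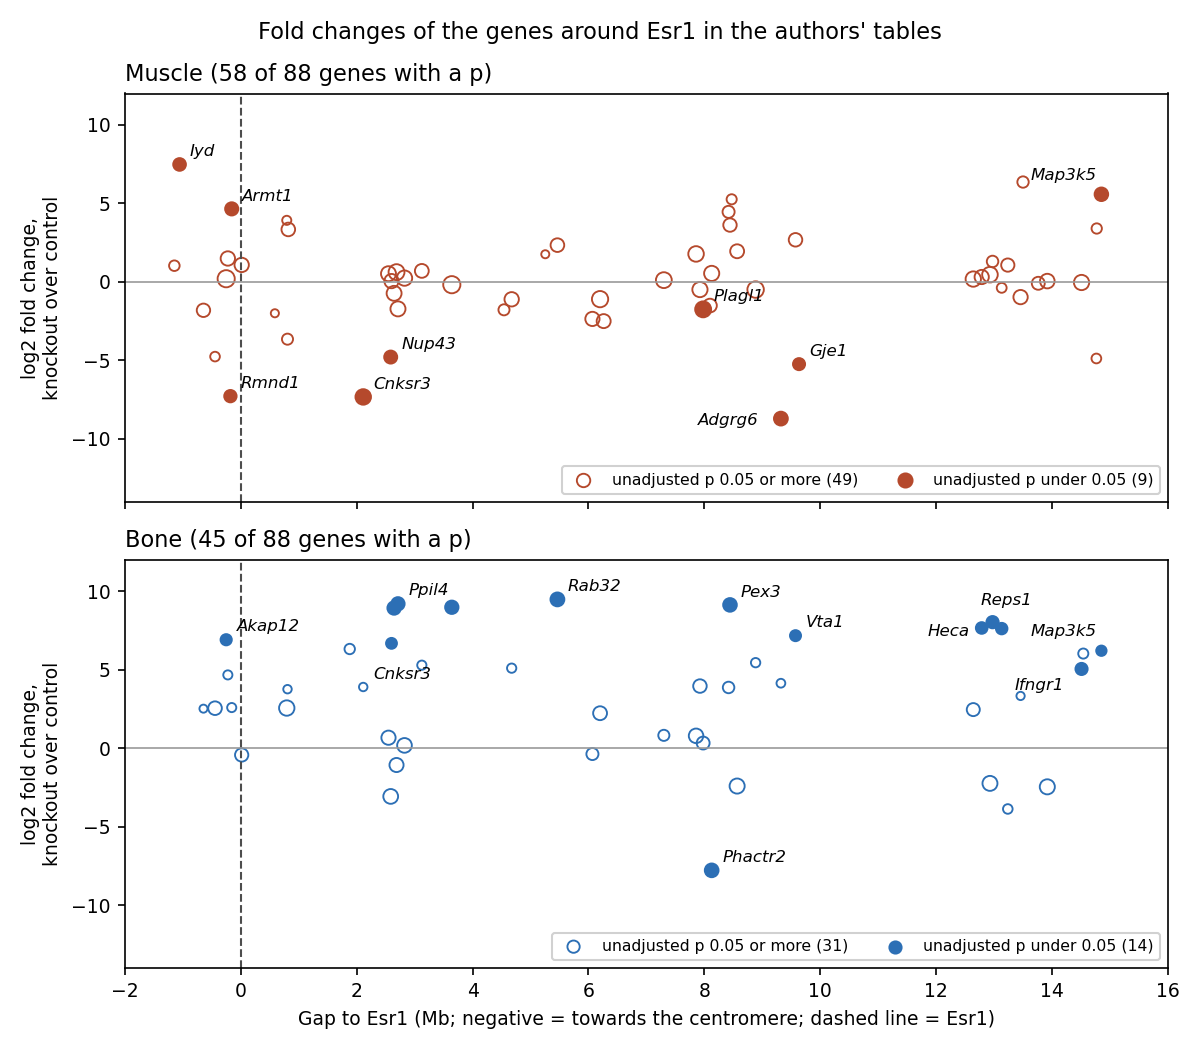
Log2 fold change (knockout over control, vertical axis) against the gap to Esr1 in Mb (horizontal axis, negative towards the centromere) for members with a p, muscle above and bone below. Filled points have an unadjusted p under 0.05 (9 in muscle, 14 in bone), and point size grows with the level; muscle points lie on both sides of 0 in all 5 distance classes, while most bone points lie above 0.

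In bone, 0 of 34 members with an FDR passed, where 0.0352% of 8534 genes did, by a test that is not named. Of 45 members with a p, 14 had an unadjusted p under 0.05 (31.1%, against 33% of all genes). The 13 higher ones (28.9%) stood against a background of 28.8% of 10518 genes, and the 1 lower one (2.22%) against 4.2%. At an FDR under 0.1 in the authors' deposited table, 10 members were higher (29.4%, against 28.1%) and 1 lower (2.94%, against 4.14%). These shares are near the background of the table and are no result about the neighbourhood.

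The higher bone members with the smallest p were Ppil4, a cyclophilin-like gene, with 9.19 (p = 0.00435), and Rab32, a small GTPase of lysosome-related organelles, with 9.47 (p = 0.00443), in the authors' deposited table. Pex3, needed to build peroxisome membranes, had 9.12 (p = 0.00596), Sash1 8.97 (p = 0.0066) and Katna1, the microtubule-severing katanin subunit, 8.92 (p = 0.00671) in the authors' deposited table. These 5 shared an FDR of 0.0784, and their levels were 13.8 to 20.2. As for Cnksr3 in muscle, values this large could arise where 1 group is close to 0, and they do not estimate a size. With the adjustment made over genes with a level of at least 10, the 5 stood at 0.0499, at which 12.4% of 5063 genes were also higher, and 23.8% of 21 members. In the authors' deposited table for muscle their values were -1.72, 2.34, 3.62, -0.18 and -0.73, none passing. Phactr2, a regulator of actin and protein phosphatase 1, was the lower member of smallest p (-7.79, p = 0.0164, FDR = 0.0822), and it had 0.54 (p = 0.578) in muscle, in the authors' deposited tables.

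The other 8 bone members with an unadjusted p under 0.05 were all higher. Reps1, an endocytosis adaptor gene, had 8.02 and Heca 7.65 in the authors' deposited table, with FDR of 0.0822 for both. Ccdc28a had 7.61, Vta1, which acts in the ESCRT pathway, 7.16, and Ifngr1, the ligand-binding chain of the interferon gamma receptor, 5.04 in the authors' deposited table. Akap12 had 6.90, Lats1 6.67 and Map3k5 6.20 in the authors' deposited table, at levels of 3.43, 2.73 and 1.82. Cnksr3 stood at a level of 0.303 in bone with 3.89 (p = 0.171, no FDR) in the authors' deposited table, and its difference between tissues was not tested.

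The direction of the bone values went with the level of the gene, among members and over all genes. Of members with a p, 36 of 45 (80%) were higher, with a median log2 fold change of 3.86, against 69.7% and 2.51 over all genes and 68.7% and 2.28 on the rest of chromosome 10. At levels up to 1, 10 of 10 members were higher, against 79.7% of all genes, and above 1 to 10, 12 of 14 (85.7%, against 86.3%). Above 10 to 50 it was 13 of 17 (76.5%, against 58.7%) and above 50 it was 1 of 4 (25%, against 44.2%). The share was thus lower above 10 than below over the whole table too. The 4 above 50 were Fbxo5 (2.55), Aig1 (-2.42), Tnfaip3 (-2.47) and Abracl (-2.25) in the authors' deposited table, none passing. The 4 neutrophil markers all had positive values in bone (median 3.39, 1 passing) and the 5 erythroid markers too (median 0.99, 0 passing) in the authors' deposited table. Their part in the members' values was not tested.

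**Figure D3:**
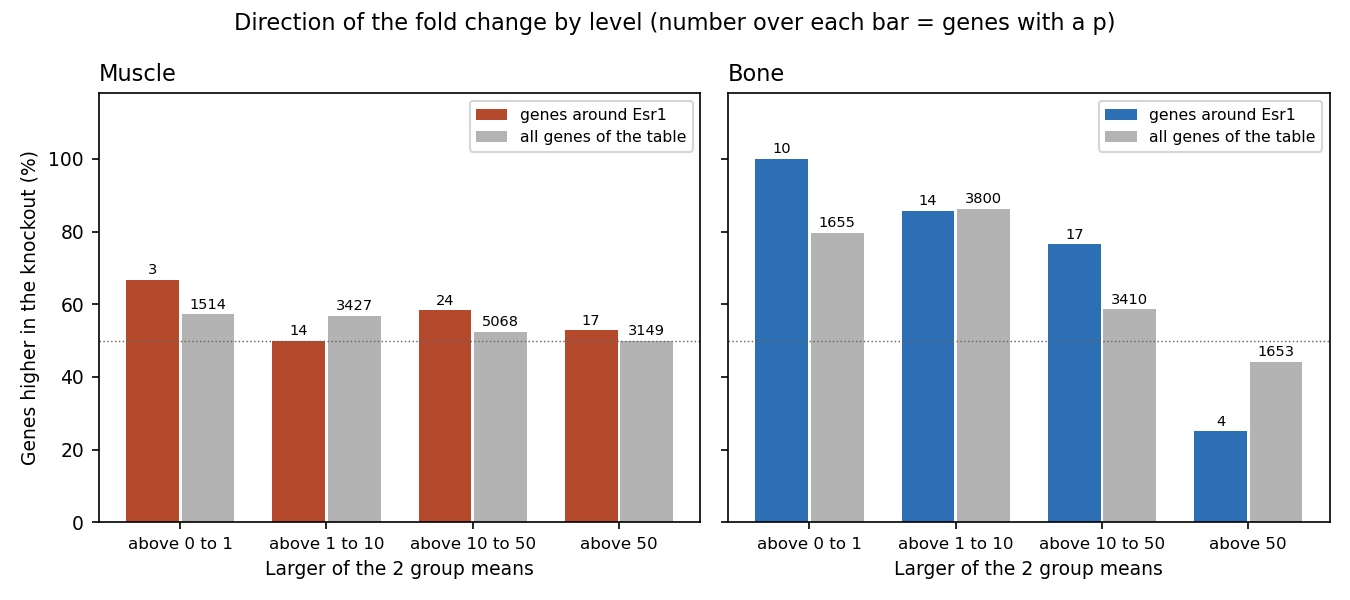
Share of genes higher in the knockout (vertical axis, %) by the larger of the 2 group means (horizontal axis) in muscle (left) and bone (right), members in colour and all genes of the table in grey, with the number of genes over each bar. Among members in bone the share falls with the level, from 100% of 10 members up to 1 to 25% of 4 members above 50. For all genes in bone it is 79.7% up to 1, 86.3% above 1 to 10, 58.7% above 10 to 50 and 44.2% above 50. For members in muscle it stays between 50% and 66.7%.

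Along the chromosome the bone medians were 2.58 for 5 centromeric members, 3.75 for 5 within 2.5 Mb on the far side, 5.18 for 10 from 2.5 to 5 Mb, 3.04 for 14 from 5 to 10 Mb and 5.04 for 11 beyond 10 Mb. The Spearman rho of distance and log2 fold change was 0.046 over 45 genes of the same libraries. Adjacent members had the same sign in 26 of 44 pairs (59.1%), against 58.2% over the whole table. The nearest expressed neighbour, Syne1, had -0.44 (p = 0.852) in the authors' deposited table at a level of 15.3.

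The 2 tissues, which come from separate samples and controls, are set side by side here, and the difference between them was not tested. Of 43 members with a p in both, 18 were higher in both (41.9%, against 37.3% of all genes) and 2 lower in both (4.65%, against 14%). There were 16 lower in muscle and higher in bone (37.2%, against 32.3%) and 7 the reverse (16.3%, against 16.4%). The Pearson r was 0.094 and the Spearman rho 0.057, against 0.016 and 0.026 over all 9598 genes with both values, a description across genes of the same libraries. Map3k5 alone had an unadjusted p under 0.05 in both (5.58 and 6.20) in the authors' deposited tables, and it passed in neither. That is 2.33% of the 43, against 3.72% of all genes. The members lower in both were Nup43 (-4.79 and -3.08) and Shprh, a DNA damage ubiquitin ligase gene (-2.36 and -0.38), in the authors' deposited tables.

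**Figure D4:**
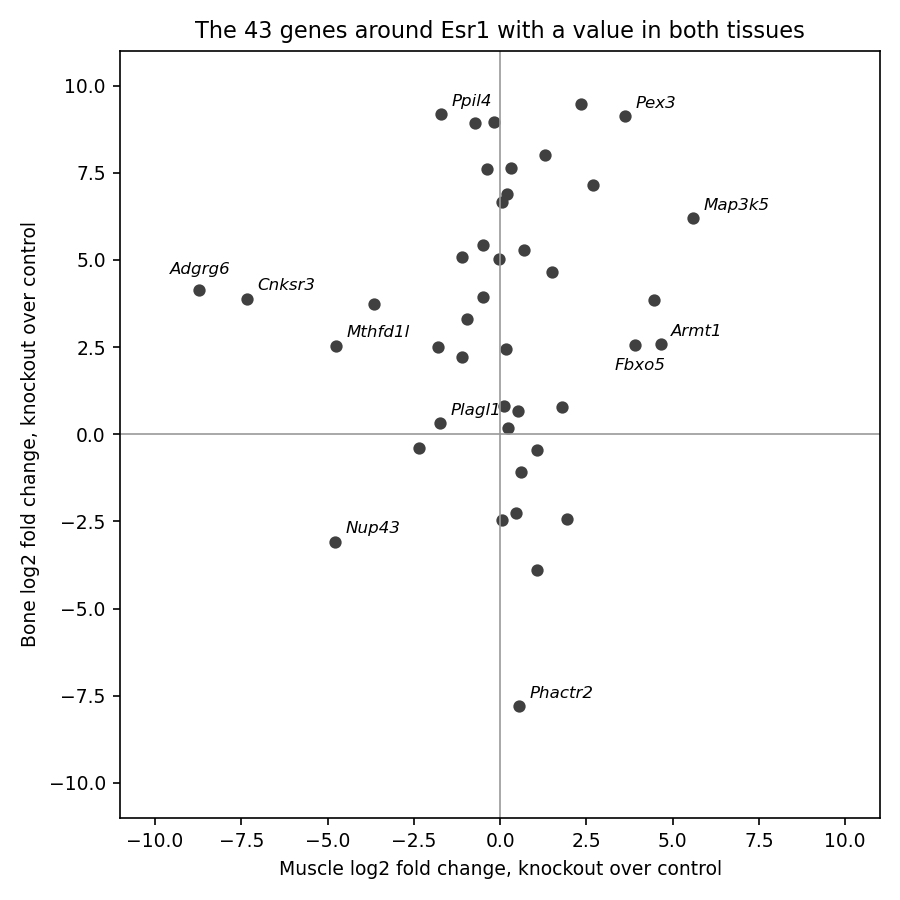
Muscle (horizontal) against bone (vertical) log2 fold change, knockout over control, for the 43 members with a value in both tissues, one point per gene. The points scatter without a common line, and Cnksr3 and Adgrg6 lie at the left, low in muscle and above 0 in bone.

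By role, 1 list held a member that passed. Some genes are in more than 1 list. Scaffolds and signal adaptors had 9 members, of which 8 had a muscle p, 5 positive and 3 negative (median 0.13), and Cnksr3 was the 1 that passed. Samd5, a member without a well described role, had -1.78 (p = 0.444) in muscle in the authors' deposited table. In bone the 7 with a p were all positive (median 6.67) in the authors' deposited table, 5 with an unadjusted p under 0.05 and 0 passing, all at levels of 14.3 or less. Over all genes in bone 69.7% were positive, 86.3% at levels above 1 to 10, and 28.8% were higher at that p. Nuclear envelope and cytoskeleton genes (8 members) had 6 positive and 2 negative muscle values (median 0.50) and 3 positive and 4 negative bone values (median -0.44), 0 passing in either. Plekhg1 had -1.81 in muscle, and Nhsl1, an actin remodelling gene, -3.88 in bone, in the authors' deposited tables.

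Of 9 receptors and ligands in the neighbourhood, 7 were listed at 0 in muscle and 6 in bone. Ifngr1 (-0.04, p = 0.965, in the authors' deposited table) and Adgrg6 were the muscle members above 0. In bone Il22ra2, a secreted decoy receptor gene, had 6.02 (p = 0.0621) in the authors' deposited table at a level of 1.72. Innate immune regulators (6 members) had medians of 0.05 over 3 genes in muscle and 2.91 over 4 in bone, 0 passing. Tnfaip3 had 0.05 (p = 0.967) in muscle and, for bone, -2.47 (p = 0.291) in the authors' deposited tables.

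Transcription regulators (7 members, 5 with a p in each tissue) had medians of 0.18 in muscle and 4.66 in bone, 0 passing. Cited2, a coactivator-binding repressor of hypoxia signalling, had 0.18 (p = 0.831) in muscle and, for bone, 2.45 (p = 0.293) in the authors' deposited tables. Mitochondrial and peroxisomal genes (5 members) had 2 positive and 3 negative muscle values (median -3.65), none with an FDR, and 3 positive bone values. Ubiquitin, glycogen and protein repair genes (7 members) had a muscle median of -1.10, with Epm2a, the glycogen phosphatase laforin, at -2.50 (p = 0.157) in the authors' deposited table, and a bone median of 2.38. RNA processing and ribosome assembly genes (4 members) had 1 positive and 3 negative muscle values and a bone median of 0.43. Among them stood Ltv1, a small-subunit assembly factor gene, at -1.51, Sf3b5, a splicing factor gene, at -0.49 and Adat2, a transfer RNA deaminase gene, at 5.26 in muscle in the authors' deposited table. The list named membrane traffic (6 members) had medians of 1.87 in muscle and 5.09 in bone. It is wider than its name, since it also held Aig1, the lipid hydrolase gene. In it Stxbp5, a brake on vesicle fusion, stood at -1.11 and 5.09 in the authors' deposited tables. None of these 4 lists had a member that passed in either tissue. In the 8 lists with 0 passing, 0 or 1 member a list had an unadjusted p under 0.05 in muscle and 0 to 2 in bone, where 11.7% and 33% of all genes did. Over all genes with a p the medians were 0.12 in muscle and 2.51 in bone.

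Outside the neighbourhood, 14 genes of the receptor's pathway were set beside it. In muscle 11 had a p, 7 positive and 4 negative, and 0 passed. An unadjusted p under 0.05 was seen for 5 of the 11, against 11.7% of all genes. In bone 8 had a p, 5 positive and 3 negative, and 0 passed. There 3 of the 8 had such a p, against 33% of all genes. The muscle genes of this kind had both signs. Nrip1, a corepressor of nuclear receptors, had -3.13 (p = 0.00216, FDR = 0.232) at a level of 104 in the authors' deposited table. Pgr, the progesterone receptor and a classical target, had -8.35 (p = 0.00621, no FDR) at a level of 16 in the authors' deposited table. Igf1, a growth factor gene, had 1.07 (p = 0.00366, FDR = 0.268) at a level of 701 in the authors' deposited table. Ctsd, a lysosomal protease gene, had 1.28 (p = 0.0464, FDR = 0.802) in the authors' deposited table. Foxa1, a pioneer factor gene, had 6.84 (p = 0.0404, no FDR) at 5.88 in the authors' deposited table. In bone they were the coactivator genes Ncoa1 and Ncoa2 and the stress response factor gene Xbp1, all positive and all at an FDR of 0.0784 or 0.0824 in the authors' deposited table. Esr2, which encodes the other nuclear estrogen receptor, was listed at 0 in both tissues.

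At the edge of the window, Map3k5 was the last gene inside. The first outside was Map7, a microtubule-binding protein gene, with 1.71 (p = 0.324) in muscle in the authors' deposited table and listed at 0 in bone.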

How the data were processed

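RNA of 12 samples in 4 groups of 3 was profiled by sequencing transcript 3' ends, per the labels. The log2 fold changes and p-values (plain, FDR and Bonferroni) were deposited by the authors for their comparison of knockout with control in each tissue, per the file headers. The larger group mean is a score of unnamed unit that the authors deposited, per the file headers. No source used here names the aligner, counter or test. GRCm38 and mm10 are named in the submitters' processing notes, but the tables' starts on this stretch differ from GENCODE M21 on GRCm38 by -124256 to -50000 bases, so their build is another one. Members and gaps were taken from the tables' coordinates, printed positions from GENCODE M21 by gene ID (88 of 88 matched), and a GRCm38 limit of 20 Mb gives the same 88 genes.

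Another 48 columns hold values by library under codes that match no label, and were not used. The planned count tests, replicate checks and replicate pairing could therefore not be run, and the authors' comparison was used, called at FDR under 0.05. Members, role lists, the pathway list and the rule for named genes were chosen with earlier results of these data known. The rule named Esr1, Cnksr3, called members, the 5 nearest with a p on each side, the 5 of smallest p in each direction and of highest level in each tissue, and up to 4 of smallest p per role list. H60c, Ccdc170, Vip, Oprm1, Ipcef1, Ulbp1, Lrp11, Pcmt1, Utrn, Ccdc28a, Nmbr and Olig3 fall outside it and were named after their values were seen. Adjusted p-values were recomputed by Benjamini-Hochberg in Python 3.11.15 with pandas 2.3.3 and scipy 1.17.1, and motif search and adjustment were tested on simulated data. Alternatives were other adjustments, level filters, a 5 Mb limit and leaving out predicted genes.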

Additional observations from a re-analysis of the deposited data

How the results depend on the processing

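The muscle call of 1 member, Cnksr3, stayed at 1 under each of the 6 alternatives run, with an adjusted p of 0.000868 over all genes with a p. An FDR under 0.1, the 5 Mb limit and leaving out predicted genes could not have removed that call. The bone count of 0 rose to 11 at an FDR under 0.1. At that limit 29.4% of 34 members were higher and 2.94% lower, against 28.1% and 4.14% of 8534 genes, so the rise is no result about the neighbourhood. The count rose to 5 (Ppil4, Rab32, Pex3, Sash1 and Katna1, each at 0.0499) with the adjustment over genes with a level of at least 10. All 5 were higher, 23.8% of 21 members, where 12.4% of 5063 genes were higher at that limit. The count stayed at 0 under the other 4. Of those 4, Bonferroni, the 5 Mb limit and leaving out predicted genes could not have raised it. The muscle median log2 fold change of 0.14 was 0.11 at levels of at least 10 and of at least 50, 0.08 over members with an FDR and 0.05 within 5 Mb of Esr1. The bone median of 3.86 was 0.78 at levels of at least 10, -2.34 at levels of at least 50 (4 genes), 3.21 over members with an FDR and 3.82 within 5 Mb; the share higher, 80%, was 25% at levels of at least 50. For these medians no replicate spread exists to set the moves against. Of adjusted p-values of single named members, 90 of 90 in muscle and 72 of 77 in bone stayed on the same side of 0.05. Much of this was fixed in advance. Bonferroni values were counted, and they cannot bring an uncalled member under 0.05. In muscle the authors' FDR of every member counted except Cnksr3 was 0.672 or more. Causes were not tested. No paired analysis was possible because the library columns match no sample label, and for the same reason no replicate could be left out and no count model or other normalization was run. Depth is unknown, so values of members at low levels cannot be given a precision.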
